A study of Mus musculus with 8 samples.

Results

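The YAP/TEAD target genes described here are 10 genes named by symbol: Ccn1, Ccn2, Ankrd1, Amotl1, Amotl2, Lats2, Ajuba, Axl, Tead1 and Yap1. Each matched a single row of a table of 78298 canonical transcripts, and all 10 passed the filter on low counts that left 17128 rows for testing. The libraries are poly(A) RNA-seq of NIH3T3 cells, a line of immortalised mouse embryonic fibroblasts, labelled as wild type and grown with fetal bovine serum. Of 8 libraries, 4 came from cells given Mic-628 for 1 day and 4 from cells given vehicle for 1 day. Mic-628 is the compound that the series title describes as an inducer of Period1. Nothing in the labels ties a library to a culture of its own. The p-values below therefore describe the spread among these 8 libraries, part of which may be technical. All libraries come from this single line, and each of the batch numbers 1 to 4 in the labels occurs once per group.

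YAP and its relative TAZ are coactivators without a DNA-binding domain of their own. They enter the nucleus and act through TEAD transcription factors when the Hippo kinases LATS1 and LATS2 do not phosphorylate them, as happens in spread, well-attached or serum-fed fibroblasts. Among the genes they induce are secreted matricellular proteins (Ccn1, Ccn2), the receptor Axl and the repeat protein gene Ankrd1, together with inhibitors of YAP that form negative feedback (Amotl1, Amotl2, Lats2). Ajuba acts on the LATS kinases, and Yap1 and Tead1 encode the coactivator and a factor that carries it.

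The 10 genes did not move together after 1 day of Mic-628. Ccn1 and Axl rose, by 1.17-fold and 1.09-fold. Amotl2 and Ankrd1 fell, to 0.894 and 0.906 of the vehicle level. Ccn2, Amotl1, Lats2, Ajuba, Yap1 and Tead1 were not called. A gene is called where edgeR's quasi-likelihood test gives a Benjamini-Hochberg adjusted p under 0.05 over all rows tested. By this rule 4 of the 10 genes were called, against 4.37% of all rows, 2.13% higher and 2.25% lower. The 10 genes were chosen with earlier results of these data known, so the contrast is only a description. Abundant rows were called more often: among the 4333 rows with a mean of at least 50 CPM (counts per 1000000 counts of the library), as all 10 genes had, the share was 8.91%. The median log2 fold change of the 10 genes was -0.05, and that of all rows tested was -0.0040. At an unadjusted p under 0.05, 6 of the 10 genes passed, 3 higher and 3 lower, as did 2905 of all 17128 rows (17.0%).

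**Figure D1:**
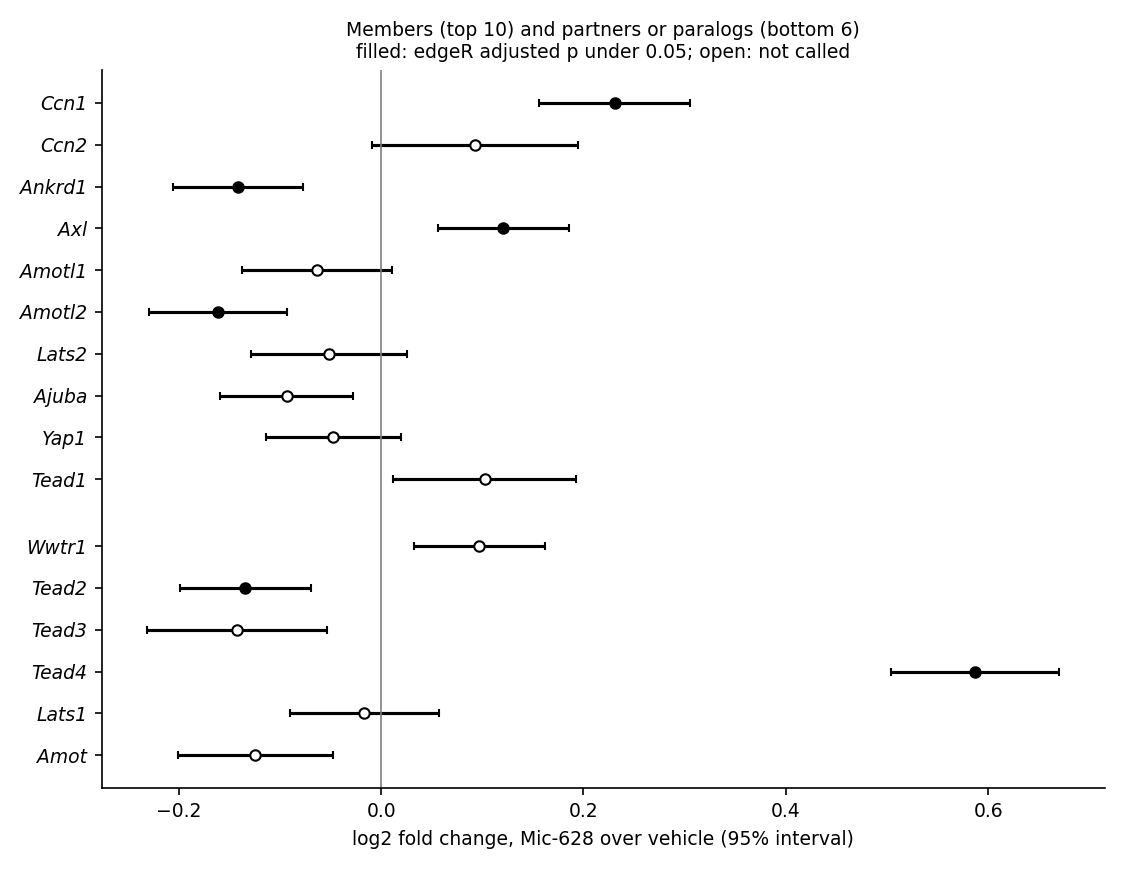
Log2 fold change of Mic-628 over vehicle with its 95% interval for the 10 genes and for 6 partners or paralogs, 4 libraries per group; filled points passed an adjusted p under 0.05. Ccn1 (0.23) and Axl (0.12) lie to the right of 0, Ankrd1 (-0.14) and Amotl2 (-0.16) to the left, and Tead4 (0.59) lies farthest from 0.

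Promoter sequences of these genes were searched for short motifs. TEAD proteins bind the letters GGAATG or, on the opposite strand, CATTCC. RefSeq promoter windows (build GRCm38.p6) of 300 bases, 250 before and 50 after the annotated start, were matched to 8 of the 10 genes. Ccn2 and Tead1 had no matched window and were not searched. At least 1 such motif was found in 7 of the 8, in 7 of 9 windows and 9 times in all. Of all 32851 promoter windows, 14.7% hold it. Several of these genes are textbook TEAD targets with known sites near the start, so this share is given as a description. The windows of the 4 called genes are shown 5′ to 3′ on the strand of the gene, with the TEAD motif in capitals, because genes of both directions carry it.
Ccn1 (chr3:145649936-145650235, minus strand): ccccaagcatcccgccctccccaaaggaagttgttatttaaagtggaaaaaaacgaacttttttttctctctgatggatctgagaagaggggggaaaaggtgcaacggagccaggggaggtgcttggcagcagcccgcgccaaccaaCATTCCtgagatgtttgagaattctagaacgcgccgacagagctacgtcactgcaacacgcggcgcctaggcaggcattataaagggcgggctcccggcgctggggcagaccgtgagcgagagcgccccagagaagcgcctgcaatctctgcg
Axl (chr7:25788684-25788983, minus strand): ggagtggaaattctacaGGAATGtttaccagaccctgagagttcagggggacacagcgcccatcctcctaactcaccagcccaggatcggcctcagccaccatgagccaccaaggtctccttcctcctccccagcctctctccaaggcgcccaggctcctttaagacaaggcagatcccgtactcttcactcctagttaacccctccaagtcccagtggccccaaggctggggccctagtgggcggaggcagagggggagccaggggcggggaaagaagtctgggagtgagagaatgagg
Ankrd1 (chr19:36119795-36120094, minus strand): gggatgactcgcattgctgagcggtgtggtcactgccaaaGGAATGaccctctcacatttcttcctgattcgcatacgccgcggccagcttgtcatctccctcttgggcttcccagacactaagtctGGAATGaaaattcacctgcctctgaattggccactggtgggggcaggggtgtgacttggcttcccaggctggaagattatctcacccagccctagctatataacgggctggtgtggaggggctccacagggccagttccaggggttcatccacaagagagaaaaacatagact
Amotl2 (chr9:102717554-102717853, plus strand): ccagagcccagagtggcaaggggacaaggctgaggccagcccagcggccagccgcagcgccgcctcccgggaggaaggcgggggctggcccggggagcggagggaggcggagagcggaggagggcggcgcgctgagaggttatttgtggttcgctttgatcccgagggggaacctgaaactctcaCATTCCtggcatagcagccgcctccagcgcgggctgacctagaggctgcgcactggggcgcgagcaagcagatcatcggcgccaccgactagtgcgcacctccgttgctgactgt

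The motif begins 103 bases before the start in Ccn1, 233 bases before it in Axl, 210 and 123 bases before it in Ankrd1, and 65 bases before it in Amotl2. It is read as GGAATG on the gene's own strand in Axl and Ankrd1 and as CATTCC in Ccn1 and Amotl2. Genes that rose and genes that fell are found under each orientation. The uncalled genes Ajuba, Lats2 and Yap1 carry the motif as well, and their sites are given with 10 flanking bases on either side for comparison.
Ajuba, 186 bases before the start (chr14:54577832-54577857, minus strand): ttgatggataCATTCCacagtgcccc
Ajuba, 164 bases before the start (chr14:54577810-54577835, minus strand): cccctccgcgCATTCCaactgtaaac
Lats2, from base 5 after the start (chr14:57746104-57746129, minus strand): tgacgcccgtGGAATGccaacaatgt
Yap1, 141 bases before the start (chr9:8004722-8004747, minus strand): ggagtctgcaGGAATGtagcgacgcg

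The window of Amotl1 and the second window of Lats2 hold no such letters. The E-box CACGTG, the element through which CLOCK and BMAL1 act and a palindrome, was found in 2 of the 8 genes, Lats2 (10 bases before the start) and Yap1 (163 bases before it), and in 7.15% of all windows. Neither of these genes was called. The CArG box, the element bound by serum response factor (SRF), was found in none of the 8 and in 1.63% of all windows. Ccn2, without a window, was not searched for it. A motif match in this short window is a description and does not show binding. Distances are from RefSeq's annotated start, and whether that is the start of the transcript counted here was not checked.

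**Figure D2:**
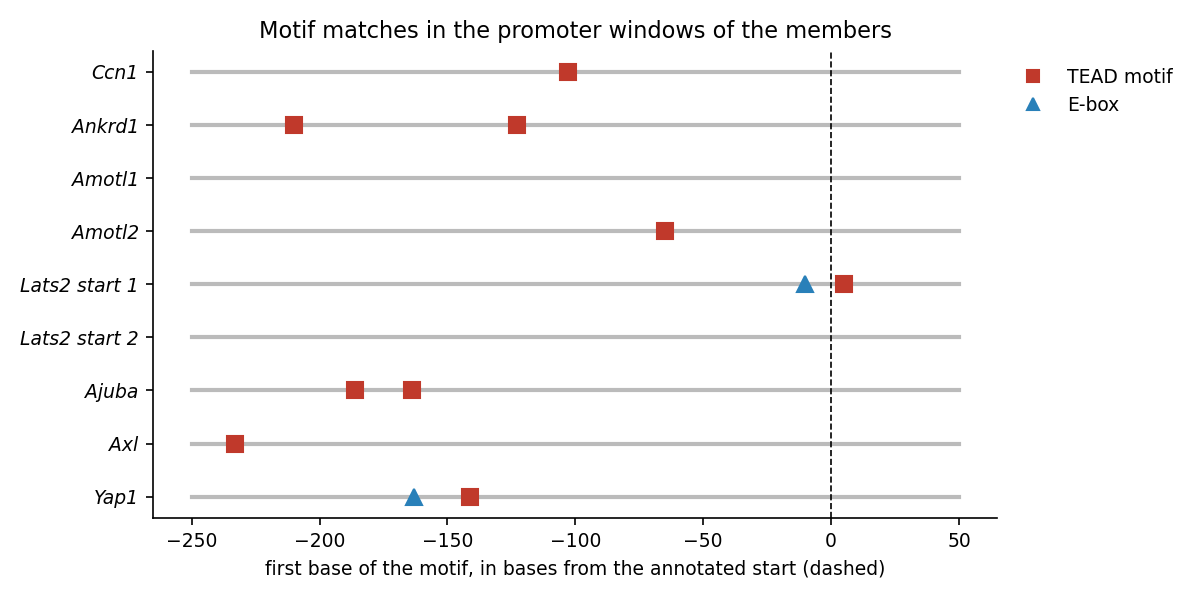
Motif matches in 9 promoter windows of 8 genes, placed by the motif's first base in bases from the annotated start; squares are TEAD motifs and triangles E-boxes. All windows carry a TEAD motif except that of Amotl1 and the second of Lats2.

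Depth was 18106347 to 23158317 counts on listed transcripts with Mic-628 and 20313305 to 21715811 counts with vehicle. Per1 rose 5.79-fold with Mic-628, in all 4 batch pairs. All of 7 fibroblast markers were detected. Vim and Col1a2 fell (log2 fold changes -0.22 and -0.14, Col1a2 not without batch 2 or 3) and 5 were not called. Of all rows, 2.25% were called lower. The summed level of the 7 markers was 3108 to 3240 FPKM (fragments per kilobase of exon, scaled to the library) with Mic-628 and 3427 to 3671 FPKM with vehicle. Most of this sum was Vim, at a mean of 1831 FPKM with Mic-628 and 2127 FPKM with vehicle. The sum of 9 epithelial, endothelial and blood cell markers was 7.79 to 8.33 FPKM with Mic-628 and 6.91 to 7.55 FPKM with vehicle. Of these 9, Adgre1 had no count in any library, 7 had a mean under 0.1 FPKM, and the sum was mostly Cd68. The part of these markers in the results below was not tested. In RNA from whole cultures, a change in how many cells express a gene and a change per cell cannot be told apart.

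Ccn1 and Ccn2 encode secreted matricellular proteins (formerly CYR61 and CTGF) that bind integrins, and both are widely used readouts of YAP activity. Ccn1 (transcript ENSMUST00000029846.5, mm39 chromosome 3, 145352731 to 145355736, minus strand) had 197.2, 176.6, 189.9 and 188.6 CPM in Mic-628 replicates 1 to 4, and 152.0, 160.8, 163.4 and 164.5 CPM in vehicle replicates 1 to 4. Every Mic-628 library lay above every vehicle library, and the difference had the same direction in all 4 batch pairs. edgeR put the log2 fold change at 0.23 (SE 0.036, adjusted p = 0.000175), a rise of 1.17-fold with a 95% interval of 1.11 to 1.24. It was called in 20 of 21 alternatives and missed only by limma-trend on log2(FPKM + 1) over all rows (adjusted p = 0.0507).

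Ccn2 (ENSMUST00000020171.12, chromosome 10, 24471340 to 24474576, plus strand) had 78.9, 64.3, 68.6 and 78.1 CPM in Mic-628 replicates 1 to 4, and 68.5, 66.8, 68.7 and 67.3 CPM in vehicle replicates 1 to 4. Replicates 1 and 4 with Mic-628 were the highest of all 8 libraries and replicate 2 with Mic-628 the lowest, so the groups overlapped. The coefficient of variation of Ccn2 was 9.91% with Mic-628 and 1.38% with vehicle, where counting noise alone gives 2.61%. The log2 fold change was 0.09 (95% interval -0.0093 to 0.19; edgeR adjusted p = 0.348). It was 0.05 without Mic-628 replicate 1 and 0.15 without Mic-628 replicate 2, not called in either. The log2 ratio of Ccn1 to Ccn2 was 1.38 ± 0.098 with Mic-628 and 1.24 ± 0.061 with vehicle (SD, n = 4 each). These ratios overlapped between the groups, and the difference of 0.14 did not pass (exact two-sided permutation p = 0.0571, adjusted over 6 ratios 0.0686), so it was not shown that Ccn1 moved more than Ccn2. A row on the opposite strand inside the Ccn2 span, Gm15270, held 5.28% as many counts as Ccn2. It is not stated whether the counting used strand.

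Axl encodes a receptor tyrosine kinase for the ligand GAS6 and was the most abundant of the 10 genes per length. Axl (ENSMUST00000002677.11, chromosome 7, 25456698 to 25488112, minus strand) had 1248, 1183, 1237 and 1191 CPM in Mic-628 replicates 1 to 4, and 1088, 1106, 1124 and 1150 CPM in vehicle replicates 1 to 4. The groups did not overlap, but the lowest Mic-628 library and the highest vehicle library lay close together. edgeR put the log2 fold change at 0.12 (SE 0.031, adjusted p = 0.0246), or 1.09-fold with a 95% interval of 1.04 to 1.14. The call of Axl was lost with the batch number as a block (edgeR adjusted p = 0.0515), when vehicle replicate 2 (0.0984) or 3 (0.0632) was left out, when Mic-628 replicate 1 (0.0635) or 3 (0.104) was left out, and in fits lacking batch 1, 2 or 3 (0.0510, 0.113 and 0.204). All 3 limma-trend fits missed it as well (limma adjusted p = 0.0712 to 0.156).

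Ankrd1 encodes an ankyrin repeat protein of the nucleus and sarcomere. Ankrd1 (ENSMUST00000237142.2, chromosome 19, 36089365 to 36097499, minus strand) had 210.5, 198.6, 202.9 and 202.1 CPM in Mic-628 replicates 1 to 4, and 229.6, 222.8, 219.8 and 225.6 CPM in vehicle replicates 1 to 4. Every Mic-628 library lay below every vehicle library, opposite to Ccn1. edgeR put the log2 fold change at -0.14 (SE 0.031, adjusted p = 0.00719), a level of 0.906 of vehicle with a 95% interval of 0.867 to 0.948. The call of Ankrd1 was lost when batch 2 or batch 3 was left out (edgeR adjusted p = 0.113 and 0.0600). The opposite-strand row Gm56671, chosen after its values were seen, overlaps Ankrd1, held 9.87% as many counts and fell too (log2 fold change -0.20; edgeR adjusted p = 0.0279), so reads of the pair may not be told apart.

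**Figure D3:**
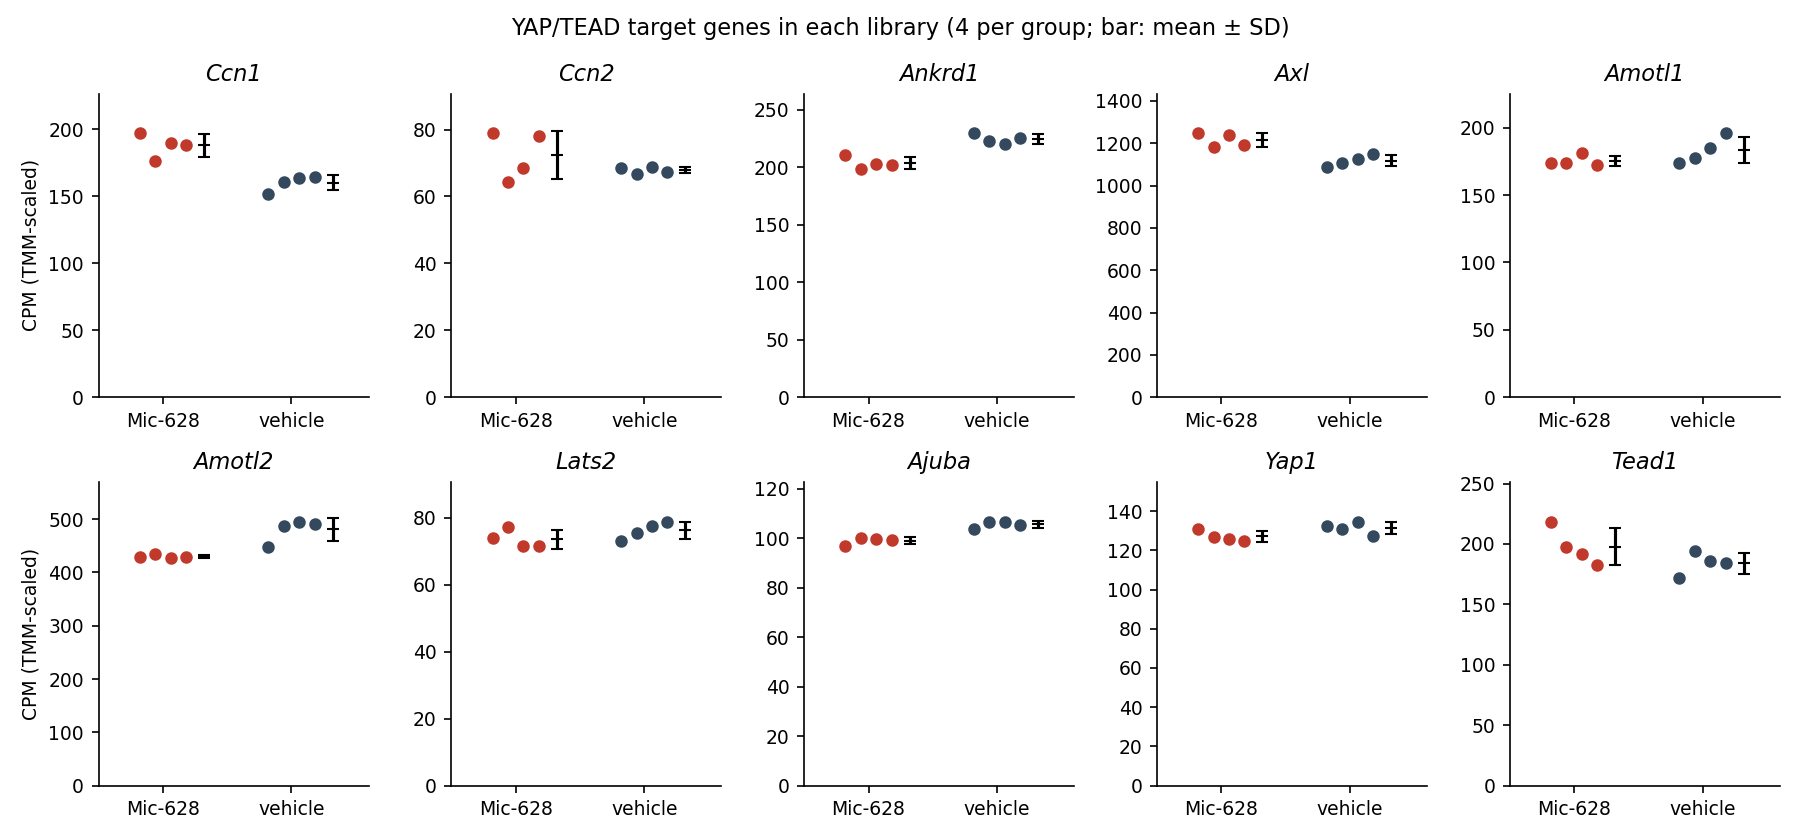
CPM of the 10 genes in each library, 4 per group, with mean and SD beside the points and every axis starting at 0. Ccn1 and Axl with Mic-628 lie above all vehicle libraries, Ankrd1, Amotl2 and Ajuba with Mic-628 lie below all of them, and the other 5 genes overlap.

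The angiomotins bind YAP at junctions and actin and keep it out of the nucleus, and their genes are themselves YAP targets. Amotl2 (ENSMUST00000035121.14, chromosome 9, 102594867 to 102610617, plus strand) had 429.0, 434.6, 427.3 and 428.5 CPM in Mic-628 replicates 1 to 4, and 448.5, 487.1, 495.5 and 491.8 CPM in vehicle replicates 1 to 4. The Mic-628 libraries lay within a narrow band below all vehicle libraries, of which replicate 1 was the lowest. edgeR put the log2 fold change at -0.16 (SE 0.033, adjusted p = 0.00385), a level of 0.894 of vehicle with a 95% interval of 0.853 to 0.937. The call of Amotl2 was likewise lost when batch 2 or batch 3 was left out (edgeR adjusted p = 0.0673 and 0.0988).

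Amotl1 (ENSMUST00000013220.8, chromosome 9, 14453262 to 14526302, minus strand) had 174.1, 173.9, 181.1 and 172.2 CPM in Mic-628 replicates 1 to 4, and 174.0, 177.8, 185.1 and 196.0 CPM in vehicle replicates 1 to 4. The groups overlapped, and the log2 fold change was -0.06 (95% interval -0.14 to 0.010; edgeR adjusted p = 0.382), but -0.02 without batch 4. Amotl2 fell relative to Amotl1: their log2 ratio was 1.29 ± 0.038 with Mic-628 and 1.39 ± 0.057 with vehicle (SD, n = 4 each). The difference of -0.10 had an exact two-sided permutation p of 0.0286, the smallest that 4 libraries against 4 can give, and 0.0429 adjusted over 6 ratios. It had the same sign in all 4 batch pairs (exact sign-flip p = 0.125, the smallest that 4 pairs allow). The groups were only just apart: the highest Mic-628 ratio was 1.322 (replicate 2) and the lowest vehicle ratio 1.327 (replicate 4). The pair of batch 4 was close too, at 1.315 with Mic-628 and 1.327 with vehicle. Amot, the angiomotin gene itself and no member of the 10, had 98.7 ± 4.17 CPM with Mic-628 and 108 ± 3.81 CPM with vehicle (SD, n = 4 each). Its groups did not overlap, and it was just short of the threshold (log2 fold change -0.12; edgeR adjusted p = 0.0562), but passed it on leaving out vehicle replicate 1 (0.0200) or batch 1 (0.00902).

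Lats2 encodes a kinase that phosphorylates and retains YAP, and Ajuba an adaptor protein with LIM domains that restrains LATS kinases at junctions. Ajuba (ENSMUST00000054487.10, chromosome 14, 54804929 to 54815015, minus strand) had 96.9, 100.1, 99.7 and 99.4 CPM in Mic-628 replicates 1 to 4, and 103.7, 106.7, 106.7 and 105.5 CPM in vehicle replicates 1 to 4. The groups did not overlap, yet the difference was small and Ajuba was not called (log2 fold change -0.09, 95% interval -0.16 to -0.027; edgeR adjusted p = 0.106). Counted by overlap alone, 5 of the 10 genes had groups apart, against 10.7% of all rows; 2 were higher, against 5.63%, and 3 lower, against 5.07%.

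Lats2 (ENSMUST00000022531.14, chromosome 14, 57927119 to 57983580, minus strand) had 74.1, 77.3, 71.5 and 71.5 CPM in Mic-628 replicates 1 to 4, and 73.0, 75.6, 77.6 and 78.9 CPM in vehicle replicates 1 to 4. The libraries of both groups were intermingled (log2 fold change -0.05, 95% interval -0.13 to 0.026; edgeR adjusted p = 0.528), and -0.02 without batch 4. The Lats2 count is uncertain, because the row Gm49361 overlaps it on the same strand and held 62.5% as many counts. The log2 ratio of Lats2 to its paralog Lats1 was -0.66 ± 0.041 with Mic-628 and -0.62 ± 0.020 with vehicle (SD, n = 4 each; exact two-sided permutation p = 0.171, also after adjustment). Lats1 itself had 116 ± 2.47 CPM with Mic-628 and 117 ± 5.38 CPM with vehicle (SD, n = 4 each; edgeR adjusted p = 0.870), and its small difference changed sign between alternatives.

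Yap1 encodes YAP, and Tead1 a TEAD factor that carries it to DNA. Yap1 (ENSMUST00000086580.12, chromosome 9, 7932000 to 8004589, minus strand) had 131.1, 126.9, 125.7 and 124.9 CPM in Mic-628 replicates 1 to 4, and 132.3, 130.9, 134.6 and 127.5 CPM in vehicle replicates 1 to 4. Its groups overlapped (log2 fold change -0.05, 95% interval -0.11 to 0.019; edgeR adjusted p = 0.490), although the Mic-628 library was the lower in each batch pair. Wwtr1, which encodes TAZ, had 153 ± 4.27 CPM with Mic-628 and 143 ± 0.931 CPM with vehicle (SD, n = 4 each). Wwtr1 was not called either (log2 fold change 0.10, edgeR adjusted p = 0.0830), although every Mic-628 library lay above every vehicle library. The ratio of the pair differed between the groups: the log2 ratio of Yap1 to Wwtr1 was -0.27 ± 0.012 with Mic-628 and -0.12 ± 0.030 with vehicle (SD, n = 4 each). The difference of -0.14 had an exact two-sided permutation p of 0.0286, the smallest possible (0.0429 adjusted over 6 ratios). It had 1 sign throughout the 4 batch pairs, where the exact sign-flip p was 0.125, the smallest that 4 pairs allow.

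Tead1 (ENSMUST00000239442.2, chromosome 7, 112278527 to 112506012, plus strand) had 218.5, 197.5, 192.0 and 182.5 CPM in Mic-628 replicates 1 to 4, and 172.3, 193.8, 185.6 and 184.0 CPM in vehicle replicates 1 to 4. Mic-628 replicate 1 was the highest and vehicle replicate 1 the lowest of the 8, and the rest were intermingled. The log2 fold change was 0.10 (95% interval 0.012 to 0.19; edgeR adjusted p = 0.221). It was 0.05 without Mic-628 replicate 1 and 0.02 without batch 1.

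The other TEAD genes, which are no members of the 10, moved unequally. Tead4 (ENSMUST00000006311.13, chromosome 6, minus strand) had 21.4, 20.4, 19.1 and 20.0 FPKM in Mic-628 replicates 1 to 4, and 13.7, 13.0, 13.7 and 13.4 FPKM in vehicle replicates 1 to 4. All Mic-628 libraries lay far above all vehicle libraries. The rise was 1.5-fold with a 95% interval of 1.42 to 1.59 (log2 fold change 0.59, SE 0.040; edgeR adjusted p = 2.15e-10), and Tead4 was called in every alternative, limma-trend included. Tead2, the most abundant TEAD gene here per length, fell (log2 fold change -0.13, edgeR adjusted p = 0.0123), though not without batch 2 or 4 (0.0756 and 0.0946). Tead3 was not called at a log2 fold change of -0.14 (edgeR adjusted p = 0.0603), but passed on leaving out vehicle replicate 1, Mic-628 replicate 4 or batch 1 (0.0248, 0.0293 and 0.0181).

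The summed level of the 4 TEAD genes was 127.4 ± 1.71 FPKM with Mic-628 and 128.1 ± 1.32 FPKM with vehicle (SD, n = 4 each), a difference within the spread between libraries. Within that sum, Tead4 took 15.9 ± 0.557% with Mic-628 and 10.5 ± 0.301% with vehicle, and Tead2 took 55.2 ± 1.46% with Mic-628 and 60.2 ± 1.08% with vehicle. Tead1 took 14.4 ± 0.909% with Mic-628 and 13.4 ± 0.681% with vehicle (SD, n = 4 each). The ratios that follow are of CPM, which, unlike the shares, is not scaled by length, so they do not rank the genes by level. Tead1 rose relative to Tead2: their log2 ratio was 0.29 ± 0.12 with Mic-628 and 0.059 ± 0.098 with vehicle (SD, n = 4 each). Part of this difference came from replicate 1, at 0.46 with Mic-628 and -0.064 with vehicle. The other libraries lay closer together, at 0.20 to 0.28 with Mic-628 and 0.028 to 0.16 with vehicle. Tead4 rose relative to Tead1, at a log2 ratio of -1.56 ± 0.074 with Mic-628 and -2.05 ± 0.10 with vehicle (SD, n = 4 each), a pair added with the values of Tead4 known. Both differences had an exact two-sided permutation p of 0.0286, the smallest possible (0.0429 adjusted over 6 ratios). Each had the same sign in all 4 batch pairs (exact sign-flip p = 0.125, the smallest that 4 pairs allow). For Tead4/Tead1 the p is no support, because the pair was added with the values of Tead4 known. This pair is among the 6 ratios and lowers the adjusted p of the other pairs that reached the smallest p.

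**Figure D4:**
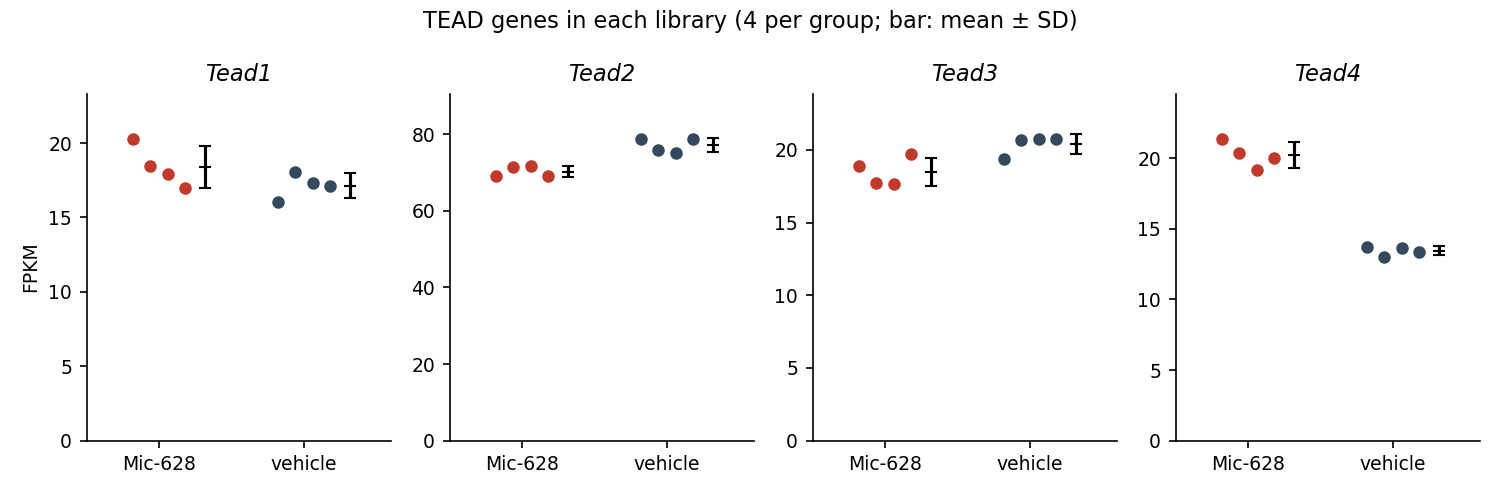
FPKM of the 4 TEAD genes in each library, 4 per group, with mean and SD and every axis starting at 0. Tead4 lies at 19.1 to 21.4 FPKM with Mic-628, above its vehicle range of 13.0 to 13.7 FPKM, while Tead2 with Mic-628 lies below all vehicle libraries.

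**Figure D5:**
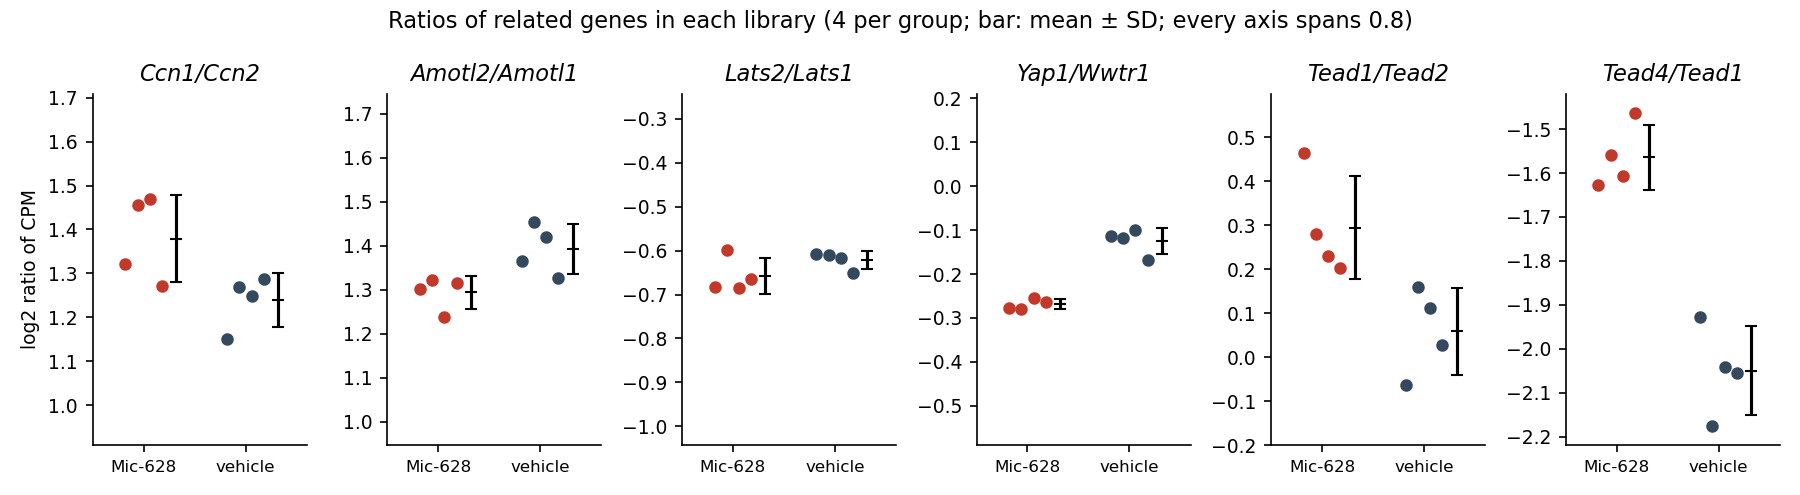
Log2 ratio of CPM for 6 pairs of related genes in each library, 4 per group, with mean and SD; each axis spans 0.8 and none starts at 0. The groups are apart for Amotl2/Amotl1, Yap1/Wwtr1, Tead1/Tead2 and Tead4/Tead1 and overlap for Ccn1/Ccn2 and Lats2/Lats1.

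Levels between genes were compared per length, in FPKM. Axl came highest, at 266 ± 6.85 FPKM with Mic-628 and 245 ± 5.40 FPKM with vehicle (SD, n = 4 each). Ankrd1 (98.9 FPKM over all 8 libraries) and Amotl2 (97.8 FPKM) followed with overlapping ranges, then Ccn1 (80.2 FPKM). Yap1 (29.2 FPKM), Ajuba (28.0 FPKM) and Ccn2 (27.2 FPKM) formed a group in which neighbours overlapped. Amotl1 (18.6 FPKM) and Tead1 (17.8 FPKM) overlapped as well, and Lats2 was lowest (13.4 FPKM). The steps from Axl to Ankrd1, from Amotl2 to Ccn1, from Ccn1 to Yap1, from Ccn2 to Amotl1 and from Tead1 to Lats2 left ranges over all 8 libraries that did not overlap.

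Wider lists of the pathway were also split. Of 22 further YAP/TEAD target genes, 20 were tested, and 3 rose, 2 fell and 15 were not called (median log2 fold change -0.04). Of all rows 4.37% were called, and of those averaging at least 50 CPM 8.91%. The lists were chosen with earlier results of these data known. F3, which encodes tissue factor, the starter of blood coagulation, rose most clearly, to 287 ± 7.78 CPM with Mic-628 against 178 ± 3.81 CPM with vehicle (SD, n = 4 each; log2 fold change 0.69, SE 0.032; edgeR adjusted p = 5.31e-14). The secreted protein gene Ccdc80 rose too (0.25; edgeR adjusted p = 3.63e-05), and both were called in every alternative. The forkhead factor gene Foxf2 (-0.16; edgeR adjusted p = 0.0102) and the thrombospondin gene Thbs1 (-0.15; 0.0136) fell. The call of Foxf2 was lost on leaving out vehicle replicate 2, Mic-628 replicate 3, batch 2 or batch 3 (edgeR adjusted p = 0.0555, 0.0565, 0.158 and 0.154), and that of Thbs1 on leaving out vehicle replicate 2, Mic-628 replicate 2 or batch 2, 3 or 4 (0.0738, 0.0709, 0.266, 0.110 and 0.0822). All 3 limma-trend fits missed both, Foxf2 with adjusted p of 0.0515 to 0.106 and Thbs1 with 0.103 to 0.229. Rows on the opposite strand held 9.61% as many counts as Ccdc80, 6.77% as many as Foxf2 and 3.3% as many as Thbs1, the last of which, Gm29233, fell as well (-0.14; edgeR adjusted p = 0.0248; chosen after its values were seen).

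Of 18 kinases and upstream regulators of the Hippo pathway, 17 were tested. Fat4, which encodes a giant cadherin, fell, and 16 were not called (median log2 fold change 0.02), a share of calls near the 4.37% of all rows. Fat4 was weakly expressed, at 0.688 FPKM with Mic-628 and 0.879 FPKM with vehicle on average (log2 fold change -0.36; edgeR adjusted p = 0.0116), and its call was lost on leaving out vehicle replicate 2, Mic-628 replicate 3, batch 2 or batch 3 (0.0789, 0.0561, 0.108 and 0.0997). All 3 limma-trend fits missed Fat4 too, with a log2 fold change of -0.15 on log2(FPKM + 1), a scale that understates low genes, and -0.31 on log2(FPKM + 0.1) (limma adjusted p = 0.343 and 0.352). Among 17 TEAD partners and paralogs of the 10 genes, 15 were tested. Tead4 and the matricellular gene Ccn4 rose, Tead2 fell and 12 were not called (median -0.01), beside the same 4.37% called of all rows. Ccn4, a relative of Ccn1, had a log2 fold change of 0.17 (edgeR adjusted p = 0.0168), and its call was lost on leaving out vehicle replicate 2, Mic-628 replicate 1 or 3, or batch 1 or 2 (0.0540, 0.0644, 0.0522, 0.0891 and 0.121). All 3 limma-trend fits missed it (adjusted p = 0.136 to 0.280).

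Ccn1, Ccn2 and Ankrd1 can also be induced through SRF and its MRTF cofactors. Of 16 SRF/MRTF genes, all tested, 3 rose and 13 were not called (median log2 fold change 0.01), against 2.13% of all rows called higher. The smooth muscle actin gene Acta2 (0.20; edgeR adjusted p = 0.000698) and Tagln (0.15; 0.00651, but 0.0979 without batch 3) rose, as did the tropomyosin gene Tpm1 (0.11; 0.0457), which was lost with the batch block (0.0732) and on leaving out any library except vehicle replicate 1, or any batch. Srf itself, which was picked with its value known, showed no call, with a log2 fold change of -0.0012 (edgeR adjusted p = 0.994). Of the 16 genes, 10 had a positive log2 fold change and 6 a negative one. Whether SRF had a part in the changes of Ccn1 or Ankrd1 was not tested.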

How the data were processed

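Poly(A) RNA of 8 NIH3T3 libraries was read as paired ends from a stranded mRNA kit, per the labels' protocols. The submitters' processing notes name bcl2fastq, STAR 2.7.10a and HOMER 4.11 with mouse build GRCm39 (mm39), without roles. The authors deposited exon read counts per canonical transcript, which come in steps of 0.5 and were treated as estimated counts. FPKM values were deposited by the authors beside the counts; FPKM recomputed from the counts, exon length and header totals differed by at most 5e-04. Columns were matched to samples by library name, and 0 were left unmatched.

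After rounding, counts were fitted with edgeR 4.0.16 under R 4.3.3 (filterByExpr with a minimum count of 10, TMM, quasi-likelihood F test without a block, Benjamini-Hochberg over 17128 rows). The standard error is the log2 fold change divided by the square root of F, and 95% intervals use the fit's degrees of freedom. CPM are TMM-scaled; log2 CPM for ratios has a prior count of 0.5. Ratios were compared by exact permutation of library labels in scipy 1.17.1, two-sided. The adjustment over 6 ratios includes Tead4/Tead1, which was added with the values of Tead4 known. Alternatives used DESeq2 1.42.0, limma-trend (limma 3.58.1) and others named in the closing section.

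The labels give a shared batch number, and the batch pairs rest on this number alone. Deviations from group means of same-numbered libraries correlated at -0.0925, 0.0744, -0.0213 and -0.0949 over 10292 rows, against -0.117 to 0.141 for pairs of unlike number. The same-numbered pairs lay within the range of the others, so these correlations gave no sign that same-numbered libraries belong together. Chi-square per gene between replicates was 1.74 to 5.79, so none was taken as a duplicate. The 10 genes and all lists were chosen with earlier results of these data known. Named are the 10 genes, the called genes of each list with the smallest p (at most 4), fixed partners and paralogs, and Per1. Promoter windows are RefSeq's on GRCm38.p6, not the build of the counts, and no coordinates were converted. Figures were drawn with matplotlib 3.10.9.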

Additional observations from a re-analysis of the deposited data

Results flagged for a closer look

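Over 28 named genes and 6 ratios in each group of 4 libraries, 68 groups were examined for a library far from the others, and chance sets a library apart in about 1 of 20 such groups. Here 1 was found: Tead3 in vehicle replicate 1, at 50.6 CPM, against 54.0 to 54.5 CPM in the other vehicle libraries. Tead3 was called lower with Mic-628 when this library was left out (edgeR adjusted p = 0.0248). None of the 10 YAP/TEAD target genes had such a library.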

How the results depend on the processing

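The 10 genes kept their direction in all alternatives run, and so did the 6 ratios, but sizes of uncalled genes moved: the log2 fold change ran from 0.02 to 0.14 for Tead1, 0.05 to 0.15 for Ccn2, -0.09 to -0.02 for Amotl1, -0.08 to -0.02 for Lats2 and -0.06 to -0.03 for Yap1. The total of 749 called rows was 277 and 273 by limma-trend on log2(FPKM + 1) and log2(FPKM + 0.1) keeping only those averaging 0.5 FPKM or more, 170 on log2(FPKM + 1) over all rows, 330 at an adjusted p under 0.01, 331 without batch 2, 292 without batch 3 and 426 to 802 without a single library. With the batch number as a replicate block it was 624, with DESeq2 558. The called genes among the 10 were 4, but 3 with the block and 3 to 4 without a single library. They were 1 without batch 2 or batch 3, where edgeR called 0 lower (3 lower at an unadjusted p under 0.05 in each, where 13.5% and 13.1% of all rows passed in either direction). By limma-trend over all rows 0 were called, 0 higher and 0 lower, though 5 passed an unadjusted p under 0.05, as did 9.27% of all rows, and DESeq2 called 4. That fit called Tead4, F3, Ccdc80 and Per1 alone among the named genes. The number called higher was 1 in place of 2 with the block, by both filtered limma-trend fits, at an adjusted p under 0.01, without batch 1, 2 or 3, and 1 to 2 without a single library; in the single-library and block fits the gene lost was Axl. Among the named genes the block changed no other call than those of Axl and Tpm1. The log2 fold change of Lats1 ran between -0.0403 and 0.0103 without a single library, the positive end without vehicle replicate 4, and was 0.0237 without batch 4. Within batch numbers the ratio differences had exact sign-flip p of 0.125 where all 4 pairs shared a sign, the smallest that 4 pairs allow (0.25 for Ccn1/Ccn2 and Lats2/Lats1). Without a library, 3 against 4 cannot go below 0.0571. Causes were not tested. The changes are small, and precision rests on 4 libraries per group.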
